A study of Mus musculus with 6 samples.

Results

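The genes described here are the mouse genes for voltage-gated potassium, sodium and calcium channels and for the other potassium channel families, 81 genes in all. They were chosen by symbol, as Kcn, Scn or Cacn genes with a mean normalized count of at least 10 over 6 astrocyte cultures. A normalized count is a gene's estimated read count divided by a library scaling factor, so its size also depends on transcript length. Of 139 genes whose symbol has that form, 4 were left out by name (Kcnj10, Kcnj16 and antisense transcripts), 54 others had a mean under 10, and 7 of the 139 were listed at 0 in every culture. Just inside the minimum were Kcnh4 (mean 10.2) and Kcnj13 (10.3), and just outside were Scn1a (9.74) and Cacna2d4 (9.14). The table holds 55357 genes, of which 15280 reached the same minimum and were tested.

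The cultures were cortical astrocytes of C57BL/6 mouse embryos. In 3 of them (KE) the cells were transfected with a plasmid in which the CMV promoter drives FLAG-tagged BRAF carrying the K499E substitution, a gain-of-function variant found in RASopathy patients. The other 3 (NT) were not transfected. All RNA was collected 48 hours after transfection and sequenced as poly(A) libraries. No culture with an empty plasmid or with a wild-type BRAF plasmid was analysed here. Plasmid delivery, a raised BRAF level and the K499E substitution therefore cannot be told apart. The CMV promoter is not restricted to astrocytes. The labels number the replicates 1 to 3 without saying whether they came from separate embryos or dissections, so the p-values measure the spread between these cultures.

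Voltage-gated channels are pores that open when the membrane potential changes, and they are built from a pore-forming alpha subunit and auxiliary subunits that set trafficking and gating. Astrocytes do not fire action potentials, and their resting potential is dominated by open potassium channels, mainly the inward rectifier Kcnj10 and the tandem-pore (Kcnk) leak channels, through which they clear potassium released by neurons. Transcripts of sodium, calcium and voltage-gated potassium channels are also present in astrocytes, most of them at lower levels than in neurons.

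Of the 81 channel genes, 22 (27.2%) were upregulated and 25 (30.9%) were downregulated in KE cultures (limma on log2 normalized counts, adjusted p under 0.05), and 34 did not pass the test. Over all tested genes, 25.3% were upregulated and 26% downregulated, so 51.3% of genes passed, against 58% of the channel genes. KE and NT values did not overlap for 54 channel genes (66.7%), and the same held for 59.9% of all tested genes. In 27 of these (33.3% of the channel genes) every KE value was above the NT values, against 30.1% of all genes, and in 27 every KE value was below, against 29.9%. The median log2 fold change (log2FC, KE against NT, with 1 added to each value) was −0.08 for the channel genes and 0.00 for all tested genes. The channel genes ranged from −3.46 for Kcnk6 to 1.67 for Kcnab1. A rise of at least 1 was measured for 8 upregulated members and a fall of at least 1 for 11 downregulated members, and 4.74% and 5.69% of all tested genes did so. Among the 42 members with a mean of at least 100, 28 passed (66.7%, against 56% of all genes at that level), and among the 39 with a lower mean 19 did (48.7%, against 33.9%). In 7 members (Kcna5, Kcng1, Kcnh4, Kcnj13, Kcnj14, Kcnk3 and Kcnk6) the mean of one group lay under 10. These members were tested only because of the group in which they were higher.

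**Figure D1:**
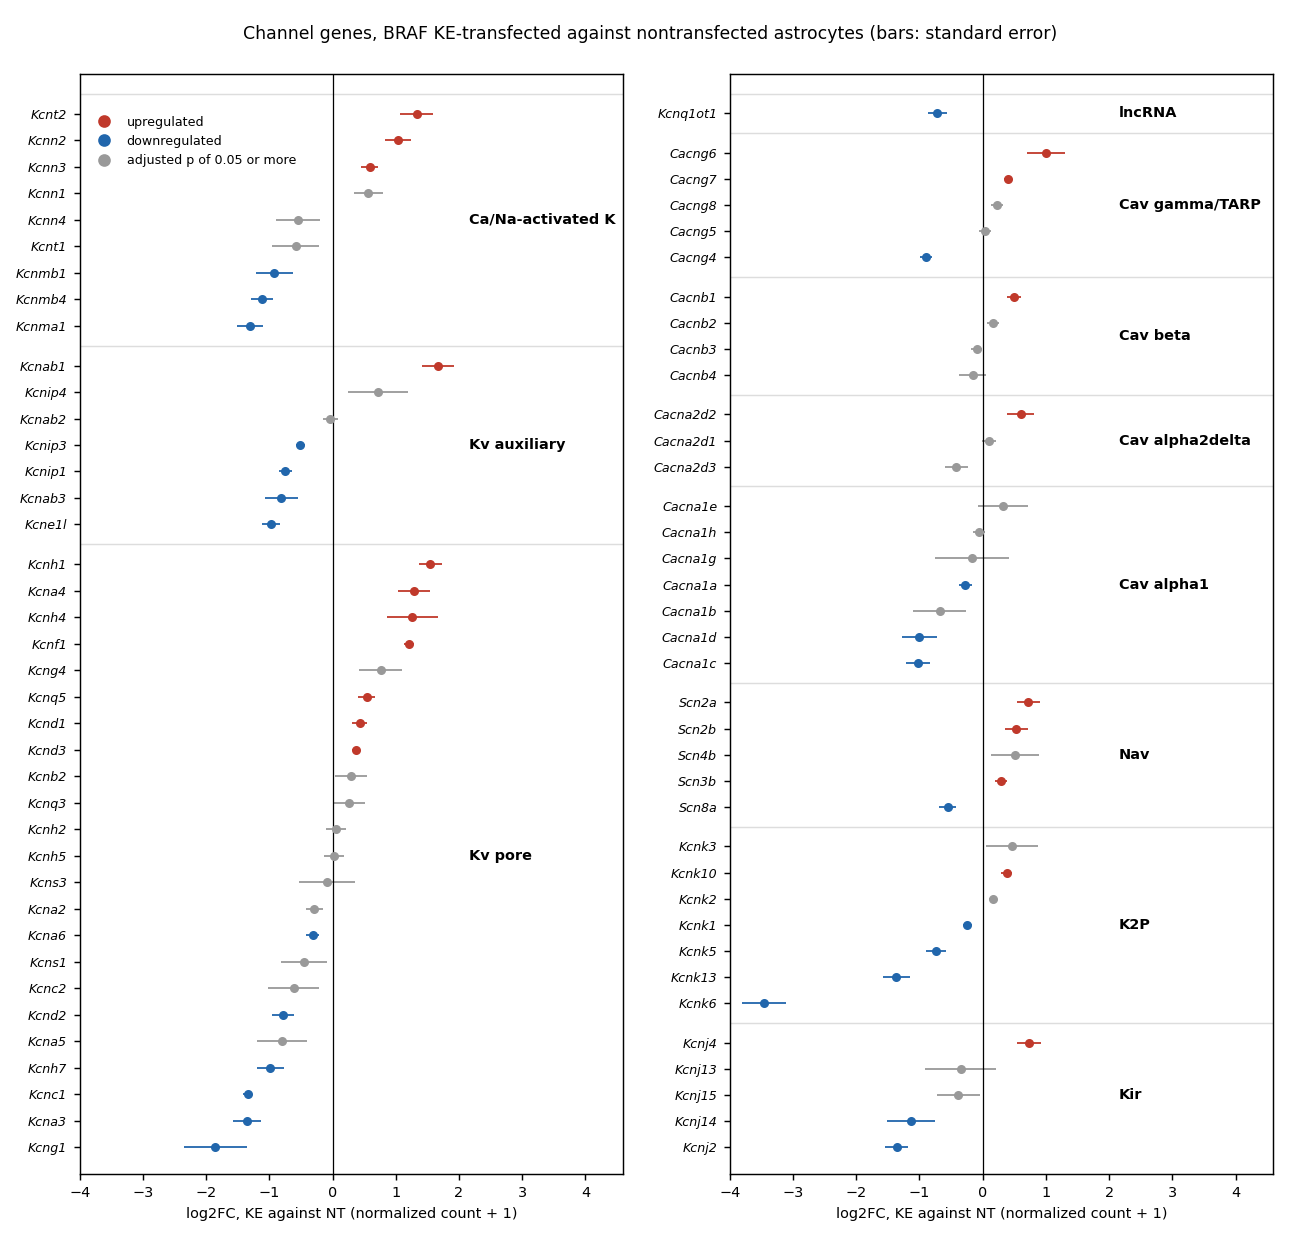
Log2FC of 76 of the 81 channel genes (KE against NT, x axis, bars give the standard error), grouped by channel class. Red genes were upregulated (20), blue genes were downregulated (25) and grey genes did not pass the limma test (31); members of one class lie on both sides of 0 in most classes.

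The start regions of 4 members that the values below turn on are shown so that their sequence can be read beside them. Kcnf1 was the member with the highest level per exon length in KE cultures, Kcnip3 the one with the highest level in NT cultures, Kcnt2 was among the largest rises and Kcnj2 among the largest falls. Each line gives the 250 bases before the start site of the RefSeq promoter table (made on GRCm38.p6), 5′ to 3′ on the gene's strand, located by exact match in GRCm39. The table gives Kcnip3 more than one start site, of which the outermost is printed, and the other two windows hold no match. Capitals mark a match to one of 4 motifs searched on both strands, AP-1 (TGANTCA), EGR (GCGNGGGCG), E-box (CACGTG) and ETS (CCGGAAGT), which were chosen after the data had been seen.
Kcnf1 (chr12:17226890-17227139, minus strand, no match): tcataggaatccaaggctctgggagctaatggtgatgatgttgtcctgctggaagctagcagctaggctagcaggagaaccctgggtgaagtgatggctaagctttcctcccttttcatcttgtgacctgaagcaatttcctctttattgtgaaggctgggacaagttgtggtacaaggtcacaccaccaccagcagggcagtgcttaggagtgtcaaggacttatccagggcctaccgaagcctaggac
Kcnip3 (chr2:127364015-127364264, minus strand, AP-1 letters): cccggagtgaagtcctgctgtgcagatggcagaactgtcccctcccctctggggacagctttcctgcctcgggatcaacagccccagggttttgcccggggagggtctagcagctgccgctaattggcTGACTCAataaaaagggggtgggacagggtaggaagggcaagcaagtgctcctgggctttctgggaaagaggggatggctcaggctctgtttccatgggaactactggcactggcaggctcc
Kcnt2 (chr1:140173206-140173455, plus strand, EGR letters on the other strand): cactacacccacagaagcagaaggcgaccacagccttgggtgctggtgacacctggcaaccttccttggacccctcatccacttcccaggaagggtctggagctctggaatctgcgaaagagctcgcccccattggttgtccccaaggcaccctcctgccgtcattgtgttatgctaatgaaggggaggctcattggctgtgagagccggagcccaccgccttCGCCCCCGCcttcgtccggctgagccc
Kcnj2 (chr11:110956740-110956989, plus strand, E-box letters): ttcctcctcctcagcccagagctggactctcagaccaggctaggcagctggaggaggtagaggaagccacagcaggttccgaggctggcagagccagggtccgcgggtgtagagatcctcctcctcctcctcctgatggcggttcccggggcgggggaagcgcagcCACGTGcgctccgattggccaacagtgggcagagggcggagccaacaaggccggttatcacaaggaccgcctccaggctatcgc
The table held 91 promoters for 61 of the 81 members. AP-1 letters were in 4 of the 91 and in 6.75% of all 32851 promoters, EGR letters in 7 (4.7% of all), E-box letters in 5 (6.02% of all) and ETS letters in 0 (2.88% of all). The EGR letters were found for Cacna1b, Cacna1c, Cacna2d1, Cacna2d2, Kcnk2, Kcnt2 and Scn8a, whose log2FC ran in both directions. A match describes the letters only. The median GC content was 59.2% for the members' promoters and 52.4% for all promoters.

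The libraries held about 24490487 to 34144743 reads by the spacing of their low values, with the lowest depth in KE replicate 2. Braf was listed at 35025, 34933 and 40978 in KE cultures and at 925, 811 and 946 in NT cultures (log2FC 5.37, limma adjusted p = 2.1e-11). Of 15 astrocyte markers, 7 were upregulated and 3 downregulated, with a summed level of 223743 to 230132 in KE and 169535 to 181710 in NT cultures. All 19 tested microglia and macrophage markers were downregulated (median log2FC −3.26), their sum was 7042 to 9741 in KE and 54712 to 64736 in NT cultures, and Siglech was at 0 throughout. Of 14 tested oligodendrocyte lineage markers 11 were downregulated (median log2FC −0.80), with a sum of 30060 to 35166 in KE and 38623 to 38937 in NT cultures. Olig1, the largest part of that sum, had a log2FC of −0.20. Of 14 vascular and mesenchymal markers 7 were downregulated and 4 upregulated (5415 to 5525 and 7667 to 9445), and of 13 neuronal markers 4 were downregulated and 3 upregulated (7687 to 8268 and 9778 to 10528, with Slc17a6 at 0). In these bulk cultures fewer cells of a type and less RNA per cell cannot be told apart, and the part of cell makeup in the results below was not tested.

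A few genes made up most of the channel transcripts once the normalized count was divided by exon length. In each culture 8 of the 81 genes, among them Kcnip3, Kcnf1, Cacng7, Kcnd3, Kcnc1, Kcne1l and Kcnk1, held between 72.5% and 74.7% of the summed level per kilobase of exon. In NT cultures the highest mean was that of Kcnip3, at 1026 normalized counts per kilobase, followed by Kcnc1 (854), Kcne1l (753), Cacng7 (673), Kcnf1 (621) and Kcnd3 (539). In KE cultures Kcnf1 came first at 1430 per kilobase, followed by Cacng7 (884), Kcnip3 (723) and Kcnd3 (697), and Kcnc1 was in place 8 (337). The sum over all 81 genes was 7244 ± 222 per kilobase in KE and 7153 ± 212 in NT cultures (mean ± SD, n = 3), a difference smaller than the spread between replicates.

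**Figure D2:**
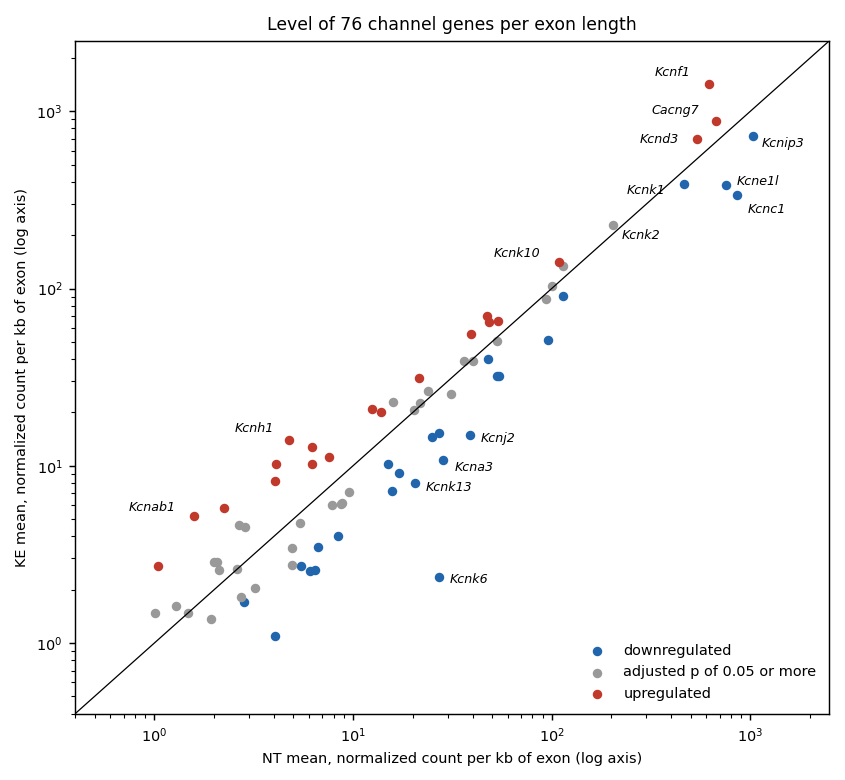
Mean normalized count per kilobase of exon in NT (x axis) and KE cultures (y axis) for 76 of the 81 channel genes, both on log axes, with the line of equal levels. Kcnf1 lies above the line (621 in NT, 1430 in KE), Kcnc1 below it (854 and 337), and Kcnk6 lies farthest below.

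The pore-forming subunits of voltage-gated potassium channels (Kcna, Kcnb, Kcnc, Kcnd, Kcnf, Kcng, Kcnh, Kcnq and Kcns) gave 26 members. Of these, 8 (30.8%) were upregulated and 6 (23.1%) were downregulated, against 25.3% and 26% of all tested genes, and 12 did not pass. The summed level of the 26 per kilobase was 2914 ± 105 in KE and 2469 ± 56.2 in NT cultures (n = 3). The genes that moved most in normalized counts were Kcnf1, upward, and Kcnc1, downward.

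Kcnf1 (ENSMUSG00000051726, chr12:17222101-17226889, GRCm39) codes for a silent subunit that forms no channel by itself and modifies delayed rectifier channels when it joins them. Its normalized count was 6767, 6689 and 7095 in KE cultures and 2941, 3306 and 2675 in NT cultures. Every KE culture was above every NT culture, with a log2FC of 1.21 (SE 0.07, adjusted p = 2.7e-07, limma). Kcnb2, a delayed rectifier, was low and did not pass (34.7 ± 7.74 in KE and 27.7 ± 0.529 in NT, n = 3). Other silent subunits were low, and of these only Kcng1 passed. Kcng1 was 2.61, 3.61 and 10.4 in KE and 13.3, 25.2 and 22.9 in NT cultures. This was a fall of 1.85 on the log2 scale (SE 0.50, limma adjusted p = 0.0099), in a gene that reached the minimum only through the NT cultures. Kcng4 had a log2FC of 0.76 (adjusted p = 0.08), Kcns1 of −0.46 and Kcns3 of −0.08, and none of these passed.

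Kcnc1 (ENSMUSG00000058975, chr7:46045674-46106392) codes for a fast delayed rectifier best known from fast-spiking neurons. Its normalized count was 3198, 3706 and 3388 in KE cultures and 8264, 8422 and 9375 in NT cultures. The groups lay far apart, and the mean was 2.53-fold lower in KE cultures (log2FC −1.34, SE 0.07, adjusted p = 8.7e-08). Kcnc2 of the same subfamily did not pass (log2FC −0.61).

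Kcnd genes code for the pores of the transient A-type current, and all 3 passed, in both directions, against 51.3% of all tested genes. Kcnd3, the most abundant of them per exon length, was 6600, 6804 and 7400 in KE and 5300, 5338 and 5444 in NT cultures (log2FC 0.37, SE 0.06, adjusted p = 0.0003). Kcnd1 rose from 255 ± 32.3 in NT to 343 ± 19.3 in KE cultures (n = 3, log2FC 0.43, limma adjusted p = 0.01). Kcnd2 was 69.6, 96.3 and 85.1 in KE and 167, 129 and 137 in NT cultures (log2FC −0.79, adjusted p = 0.0031). For each of them KE and NT values did not overlap, which held for 59.9% of all tested genes. The Kcnd3 transcript has an antisense partner, Kcnd3os, which was listed at 19.2 ± 5.72 in KE and 18.5 ± 3.73 in NT cultures.

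Among the Kcna genes, the Shaker-type delayed and A-type rectifiers, Kcna4 rose and Kcna3 fell. Kcna4, whose channel inactivates rapidly, was 54.3, 42.5 and 63.4 in KE and 24.7, 19.7 and 19.1 in NT cultures (log2FC 1.29, SE 0.25, adjusted p = 0.0014). Kcna3, a channel known from T cells and microglia, was 20.78, 20.01 and 20.82 in KE and 50.5, 57.9 and 54.4 in NT cultures (log2FC −1.36, SE 0.22, adjusted p = 0.00045). Kcna6, the most abundant of the subfamily per exon length, fell slightly from 675 ± 65.0 to 542 ± 41.9 (log2FC −0.32, adjusted p = 0.019), a call lost without KE replicate 2 (adjusted p = 0.065), NT replicate 2 (0.062) or NT replicate 3 (0.068). Kcna2 (log2FC −0.29) and Kcna5 (−0.80) did not pass, although Kcna2 did when NT replicate 3 was left out (adjusted p = 0.014).

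The Kcnh genes code for channels of the ether-a-go-go family. Kcnh1 was 109, 107 and 106 in KE and 37.7, 31.02 and 40.5 in NT cultures, so that every KE value lay well above the NT values (log2FC 1.54, SE 0.18, adjusted p = 4.4e-05). Kcnh4 was 14.5, 12.5 and 17.2 in KE and 5.94, 7.25 and 3.81 in NT cultures (log2FC 1.26, SE 0.41, adjusted p = 0.023). It reached the minimum only through the KE cultures. The Kcnh4 call was lost without KE replicate 1 (adjusted p = 0.057), KE replicate 3 (0.076) or NT replicate 3 (0.069). Kcnh7 moved the other way, with 34.2, 42.5 and 50.4 in KE and 98.9, 84.2 and 70.6 in NT cultures (log2FC −0.98, SE 0.22, adjusted p = 0.003). Kcnh2 and Kcnh5 had log2FC of 0.05 and 0.03 and did not pass. Of the Kcnq genes, which code for the M-type current, Kcnq5 rose (log2FC 0.54, adjusted p = 0.0059), while Kcnq3 (0.26) did not pass.

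**Figure D3:**
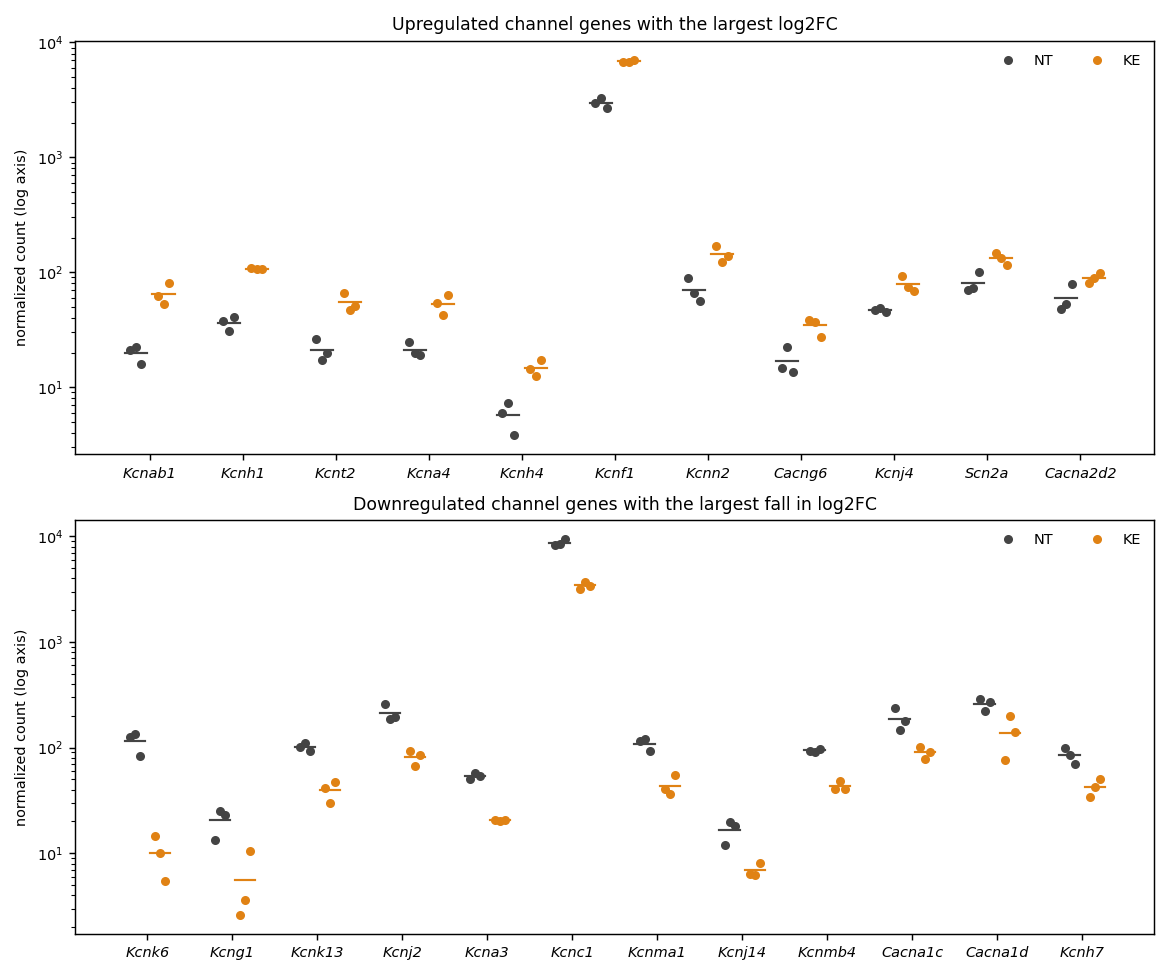
Normalized counts (log axis) in each culture for 11 of the 12 upregulated channel genes with the largest log2FC and the 12 downregulated ones with the largest fall. Each point is a culture and each line a group mean (n = 3). The genes were chosen for large called changes, so the separation of KE and NT values in all 23 follows largely from that choice. Over all tested genes, the values of 59.9% did not overlap.

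Of 7 auxiliary subunits of voltage-gated potassium channels, 4 were downregulated (57.1%, against 26% of all tested genes), a difference that was not tested. Kcnab1 was upregulated, and Kcnab2 and Kcnip4 did not pass. Summed over all 7 genes, the level per kilobase was 1203 ± 152 in KE and 1905 ± 97.6 in NT cultures (n = 3). Kcnip3 (ENSMUSG00000079056, chr2:127298418-127364014), which codes for a calcium-binding subunit of Kcnd channels also known as a DNA-binding repressor, was 2754, 3293 and 2764 in KE and 4349, 4011 and 4145 in NT cultures. The KE values all lay below the NT values (log2FC −0.51, SE 0.08, limma adjusted p = 0.0002). Kcnip1 fell from 529 ± 47.5 to 314 ± 20.3 (log2FC −0.75, adjusted p = 0.00011). Kcnip4 was low, and its values overlapped between groups (log2FC 0.71). Kcne1l, a gene of the single-pass Kcne family, fell from 1162 ± 195 to 592 ± 101 (n = 3, log2FC −0.97, limma adjusted p = 0.00016).

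The beta subunits coded by Kcnab genes bind Kcna pores in the cytoplasm and can speed their inactivation. Kcnab1 (chr3:64856617-65285647) showed the largest rise among the 81 genes. It was 61.8, 52.9 and 80.3 in KE and 21.1, 22.3 and 15.7 in NT cultures (log2FC 1.67, SE 0.26, adjusted p = 0.00027). Kcnab3 fell from 88.7 ± 24.0 to 50.4 ± 15.4 (log2FC −0.81, adjusted p = 0.021), and this call was lost without KE replicate 1 (adjusted p = 0.072), KE replicate 3 (0.083) or NT replicate 2 (0.09). Kcnab2, the most abundant of these per exon length, was 385 ± 45.5 and 396 ± 46.1, a difference within the spread between replicates (log2FC −0.04, 95% interval −0.30 to 0.22).

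Of 9 members for potassium channels opened by intracellular calcium or sodium, 3 rose, 3 fell and 3 did not pass. Over all tested genes, 25.3% rose and 26% fell. The large-conductance (BK) channel opens on calcium and depolarization together. All of its members with enough reads were downregulated, against 26% of all tested genes, a difference that was not tested. The pore gene Kcnma1 was 40.2, 36.3 and 54.6 in KE and 115, 120 and 92.4 in NT cultures (log2FC −1.31, SE 0.21, adjusted p = 0.00035). The accessory subunit Kcnmb4 was 40.6, 48.2 and 40.2 in KE and 93.8, 91.7 and 97.2 in NT cultures (log2FC −1.12, SE 0.18, adjusted p = 0.00036). Kcnmb1, an accessory subunit best known from smooth muscle, fell from 29.8 ± 2.24 to 15.5 ± 3.22 (log2FC −0.92, adjusted p = 0.02). That call was lost without KE replicate 3 (limma adjusted p = 0.065), without NT replicate 2 (0.062) or with no filter on low values (0.053). Kcnmb1 lies opposite Kcnip1 on chromosome 11, and Kcnip1 fell too, but any part of this overlap in either fall was not tested.

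The small-conductance (SK) channels, opened by calcium through calmodulin, are coded by Kcnn1, Kcnn2 and Kcnn3. Kcnn3, the most abundant member of the class per exon length, was 746, 664 and 790 in KE and 385, 547 and 549 in NT cultures (log2FC 0.58, SE 0.13, adjusted p = 0.0039). Kcnn2 was 169, 123 and 139 in KE and 89.1, 65.4 and 55.9 in NT cultures (log2FC 1.04, SE 0.20, adjusted p = 0.0014). Each rose in every KE culture over every NT culture. Kcnn1 had a log2FC of 0.57 (adjusted p = 0.058), which passed without NT replicate 2 (adjusted p = 0.009). The intermediate-conductance channel Kcnn4, known from immune cells and microglia, had a log2FC of −0.55 and did not pass. The sodium-activated channel genes were Kcnt1 and Kcnt2. Kcnt2 was 65.6, 47.0 and 51.2 in KE and 26.5, 17.1 and 20.02 in NT cultures (log2FC 1.33, SE 0.26, adjusted p = 0.0014). Kcnt1 was 36.2, 120 and 42.4 in KE and 77.8, 108 and 76.4 in NT cultures, where KE replicate 2 stood above the other KE cultures. It did not pass (log2FC −0.59, adjusted p = 0.22), and without that culture it was lower in KE (log2FC −1.12, adjusted p = 0.0034).

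The inward rectifiers other than Kcnj10 and Kcnj16 gave 5 members, of which 2 fell, 1 rose and 2 did not pass. That was 40% down and 20% up, against 26% and 25.3% of all tested genes. Kcnj2, which codes for a strong rectifier that holds the resting potential in many cells, was 93.1, 67.5 and 85.1 in KE and 257, 185 and 194 in NT cultures (log2FC −1.36, SE 0.18, adjusted p = 8.1e-05). Kcnj4, a related strong rectifier, went the other way, with 93.1, 75.03 and 68.8 in KE and 46.5, 48.6 and 44.9 in NT cultures (log2FC 0.74, SE 0.19, adjusted p = 0.008). Per kilobase of exon, Kcnj2 was at 14.98 in KE and 38.8 in NT cultures and Kcnj4 at 21.0 and 12.4, so their order was reversed between the groups. Kcnj14 was 6.33, 6.25 and 8.15 in KE and 11.9, 19.7 and 18.1 in NT cultures (log2FC −1.13, SE 0.38, adjusted p = 0.028). It reached the minimum only through the NT cultures. The Kcnj14 call was lost without KE replicate 1 (adjusted p = 0.064), KE replicate 2 (0.056), NT replicate 2 (0.097) or NT replicate 3 (0.087). Kcnj13 and Kcnj15 had log2FC of −0.35 and −0.39 and did not pass. The main astrocyte rectifier Kcnj10, outside the set by the rule, was 8994, 9638 and 9428 in KE and 10683, 11373 and 12651 in NT cultures (log2FC −0.30, adjusted p = 0.0032), and its partner Kcnj16 fell too (log2FC −1.15, adjusted p = 0.00028).

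The tandem-pore leak channels gave 7 members, of which 4 fell (57.1%, against 26% of all tested genes) and 1 rose (14.3%, against 25.3%). These differences were not tested. The 3 most abundant of the 7 per exon length were Kcnk1, Kcnk2 and Kcnk10. Kcnk10, a lipid- and stretch-sensitive channel, was 1232, 1293 and 1180 in KE and 870, 928 and 1062 in NT cultures (log2FC 0.38, SE 0.08, adjusted p = 0.0032). Its close relative Kcnk2 was 1146 ± 20.1 in KE and 1021 ± 32.4 in NT cultures, which did not pass (log2FC 0.17, 95% interval 0.02 to 0.31, adjusted p = 0.051, n = 3, limma). Kcnk1 was 990 ± 8.17 and 1174 ± 68.5 (log2FC −0.24, adjusted p = 0.012), a call lost without NT replicate 3 (adjusted p = 0.059). Kcnk5 fell further (log2FC −0.74, adjusted p = 0.0021), and Kcnk3 was low and did not pass.

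The less abundant Kcnk6 (ENSMUSG00000046410, chr7:28921346-28932035) and Kcnk13 (chr12:99924948-100028942) fell most. Kcnk6 was 14.5, 10.002 and 5.43 in KE and 125, 136 and 83.9 in NT cultures, an 11.5-fold lower mean (log2FC −3.46, SE 0.34, adjusted p = 9.6e-06). This was the largest change among the 81 genes, but Kcnk6 reached the minimum only through the NT cultures (mean 115, against 9.97 in KE). Kcnk13, which is known as a leak channel of microglia, was 41.6, 30.0 and 46.9 in KE and 102, 111 and 92.6 in NT cultures (log2FC −1.36, SE 0.21, adjusted p = 0.00028). The microglia and macrophage markers moved in the same direction, at a median log2FC of −3.26 and with none of the 19 rising. Among them Csf1r was 278, 277 and 274 in KE and 2751, 3737 and 2751 in NT cultures. The part of these markers in the falls of Kcnk6, Kcnk13, Kcna3, Kcnj2 and other members was not tested.

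The sodium channel genes gave 7 members, of which 4 rose (57.1%, against 25.3% of all tested genes), 1 fell and 2 did not pass. The difference in these shares was not tested. The beta subunits are single-pass proteins that also act in cell adhesion. Scn2b (93.4 ± 11.1 in KE, 64.4 ± 8.01 in NT, log2FC 0.53, adjusted p = 0.03) and Scn3b (469 ± 20.6 and 385 ± 38.9, log2FC 0.29, adjusted p = 0.031) rose, in limma. Scn4b had a log2FC of 0.51 and did not pass. The Scn2b call was lost without KE replicate 1 (adjusted p = 0.097), KE replicate 2 (0.084), NT replicate 1 (0.094) or NT replicate 2 (0.06). A replicate block also ended the Scn2b call (limma adjusted p = 0.051). The Scn3b call was lost without KE replicate 1 (adjusted p = 0.099), KE replicate 2 (0.072), NT replicate 1 (0.12) or NT replicate 2 (0.055).

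Pore-forming sodium channel genes moved in both directions. Scn2a, the pore of immature axons, was 148, 134 and 116 in KE and 69.7, 73.1 and 99.7 in NT cultures (log2FC 0.72, SE 0.18, adjusted p = 0.0066). Scn8a, the pore of mature nodes and also found in microglia, was 178, 149 and 158 in KE and 261, 218 and 235 in NT cultures (log2FC −0.56, SE 0.13, adjusted p = 0.0038). KE and NT values did not overlap for either gene.

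**Figure D4:**
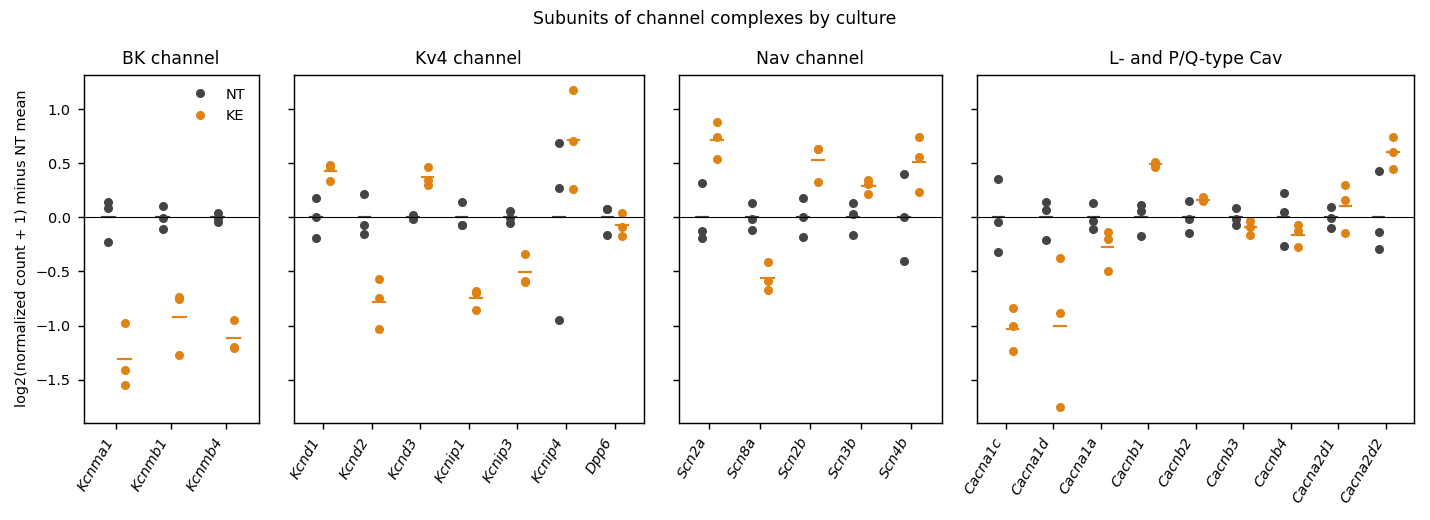
Log2 normalized count of each subunit in each culture, set against its NT mean (y axis, 1 added before the log), for the BK channel, the A-type potassium channel (titled Kv4), the sodium channels and the L- and P/Q-type calcium channels. Lines mark group means (n = 3). The BK subunits all lie below 0 in KE cultures, while the other complexes hold subunits on both sides. Of all tested genes, 26% were downregulated.

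The pores of voltage-gated calcium channels (Cacna1 genes) gave 7 members, of which 3 fell (42.9%), none rose and 4 did not pass. Over all tested genes, 26% fell and 25.3% rose, and the difference was not tested. Both L-type pores that reached the minimum fell. L-type channels carry long-lasting calcium current. Cacna1c (ENSMUSG00000051331, chr6:118564201-119173851) was 102, 77.3 and 91.1 in KE and 236, 147 and 179 in NT cultures (log2FC −1.03, SE 0.19, adjusted p = 0.00094). Cacna1d was 76.2, 199 and 140 in KE and 286, 224 and 272 in NT cultures, with a wide spread in KE cultures (log2FC −1.004, SE 0.28, adjusted p = 0.011). Without KE replicate 1, the lowest, its log2FC was −0.63 (adjusted p = 0.02). The Cacna1d call was lost in limma without a variance trend (adjusted p = 0.057). Cacna1a, the P/Q-type pore, was 834, 649 and 798 in KE and 851, 1005 and 892 in NT cultures. Its log2FC of −0.27 passed narrowly (adjusted p = 0.048). The call was lost without KE replicate 2 (log2FC −0.16, adjusted p = 0.17), KE replicate 3 (0.062), NT replicate 2 (0.17) or NT replicate 3 (0.07). It was also lost with a replicate block (limma adjusted p = 0.075), quantile normalization (0.081), no variance trend (0.11) or no filter on low values (0.051).

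The remaining calcium channel pores did not pass. The T-type pore Cacna1h, the most abundant calcium channel pore per exon length, was 505, 552 and 604 in KE and 621, 552 and 563 in NT cultures (log2FC −0.06, 95% interval −0.27 to 0.14). Cacna1g was 13.7, 55.7 and 12.1 in KE and 34.4, 35.3 and 11.04 in NT cultures, which leaves its difference poorly fixed (95% interval −1.45 to 1.12). Cacna1b, the N-type pore, was 49.2, 26.4 and 106 in KE and 106, 56.0 and 98.4 in NT cultures, and it was lower in KE when KE replicate 3 was left out (log2FC −1.19, adjusted p = 0.021). Cacna1e, the R-type pore, was 44.3, 45.4 and 132 in KE and 35.2, 62.5 and 61.5 in NT cultures (log2FC 0.32). KE replicate 3 was the highest KE culture for both Cacna1b and Cacna1e.

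Among the auxiliary calcium channel subunits, 2 of 7 beta and alpha2delta members rose and none fell. The shares over all tested genes were 25.3% and 26%, and no difference from them was tested. Of the cytoplasmic beta subunits, Cacnb1 was 312, 319 and 322 in KE and 235, 200 and 244 in NT cultures (log2FC 0.49, SE 0.11, adjusted p = 0.0036). Cacnb3, the most abundant per exon length, was 461, 444 and 420 in KE and 447, 467 and 500 in NT cultures (log2FC −0.09), and Cacnb2 (0.16) and Cacnb4 (−0.16) did not pass either. Of the extracellular alpha2delta subunits, Cacna2d1, the gabapentin receptor, was 891, 725 and 981 in KE and 799, 746 and 857 in NT cultures (log2FC 0.10). Cacna2d2 was 80.1, 89.5 and 98.7 in KE and 47.4, 53.2 and 78.9 in NT cultures (log2FC 0.60, SE 0.22, adjusted p = 0.037). That call was lost when any culture except NT replicate 3 was left out (adjusted p = 0.054 without KE replicate 1, 0.08 without KE replicate 2, 0.12 without KE replicate 3, 0.13 without NT replicate 1 and 0.099 without NT replicate 2). Cacna2d3 had a log2FC of −0.42 (adjusted p = 0.077) and passed without KE replicate 2 (adjusted p = 0.038).

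The Cacng genes code for a family named after the gamma subunit of the muscle calcium channel, most of whose brain members (TARPs) instead carry AMPA receptors to the membrane. Cacng7 (ENSMUSG00000069806, chr7:3380237-3416738) was 3337, 3633 and 3526 in KE and 2589, 2573 and 2826 in NT cultures (log2FC 0.39, SE 0.06, adjusted p = 0.00031). Cacng4 was 208, 215 and 210 in KE and 401, 414 and 369 in NT cultures (log2FC −0.90, SE 0.10, adjusted p = 2.7e-05). The KE values of Cacng4 were tightly grouped and all below the NT values. Cacng6, a gamma subunit of the muscle type, was 38.6, 37.1 and 27.5 in KE and 14.6, 22.4 and 13.6 in NT cultures (log2FC 1.01, SE 0.30, adjusted p = 0.016), a call lost without KE replicate 1 (adjusted p = 0.061). Cacng5 (log2FC 0.04) and Cacng8 (0.23, adjusted p = 0.066) did not pass.

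Kcnq1ot1 is a long noncoding RNA that silences imprinted genes around Kcnq1 and codes for no channel. It was 174, 131 and 178 in KE and 303, 247 and 245 in NT cultures (log2FC −0.72, SE 0.15, adjusted p = 0.0021). It is transcribed across Kcnq1 from the opposite strand (chr7:142731402-142850327, minus strand), and whether the counting used strand is not given in the sources used here.

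Genes that work with these channels were examined in lists written with earlier results known. Of 10 partners of potassium channels only 2 reached the minimum, of which Amigo1, an adhesion protein that joins delayed rectifier channels, rose (log2FC 0.30, adjusted p = 0.0063) and Dpp6, an auxiliary protein of Kcnd channels, had a log2FC of −0.07. Of 13 tested partners of sodium and calcium channels, 3 rose, 3 fell and 7 did not pass (median log2FC −0.14). Gem, a small GTPase that inhibits calcium channels through their beta subunits, was 1712, 1726 and 1786 in KE and 417, 422 and 439 in NT cultures (log2FC 2.03, SE 0.07, adjusted p = 6.3e-09). Its relative Rrad rose as well (log2FC 0.84, adjusted p = 0.0045), as did Stac, an adaptor of L-type channels (1.01, adjusted p = 5.3e-05). Stac2 (−0.66), Unc79 (−0.40) and the ankyrin Ank3 (−0.16), which anchors sodium channels, fell.

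Of 14 tested genes of the sodium-potassium pump and the cation-chloride cotransporters, 7 rose, 5 fell and 2 did not pass (median log2FC 0.15). The glial pump beta subunit Atp1b2 rose (log2FC 0.97). Of the pump regulators, Fxyd1 rose (log2FC 0.61), and Fxyd5 (−1.87) and Fxyd6 (−0.70) fell. Of 8 other voltage-sensing channel genes, Hcn2 rose (log2FC 0.57) and the proton channel Hvcn1, known from microglia, fell from 888 ± 71.7 to 287 ± 35.9 (log2FC −1.63, limma adjusted p = 5.1e-07), while 5 did not pass (median 0.15). Cnga3 also passed, upward, but it reached the minimum only through the KE cultures, with 24.6, 22.1 and 14.8 against 2.70, 2.83 and 0 in NT cultures.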

How the data were processed

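RNA from 6 cultures was sequenced with a stranded poly(A) kit. The authors trimmed reads with Trim Galore, aligned them with STAR, estimated gene counts with Salmon and deposited these counts divided by DESeq2 size factors, a normalized signal per gene and culture. The study's methods give GRCm39 with Gencode annotation for mouse, whereas the submitters' processing notes name GRCh38, and the table holds mouse genes. Between 74.7% and 77.6% of low values were within 0.1 of a whole multiple of the smallest step, so whole reads were not recovered and no count model was used.

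Genes with a mean of at least 10 were tested as log2(normalized count + 1) with limma 3.58.1 in R 4.3.3 (two-sided, variance trend, Benjamini-Hochberg adjustment over all 15280 genes, threshold 0.05). An exact permutation test of 3 against 3 cannot go below 0.1. The study's methods mention an adjustment for batches in its differential analyses without naming them, the labels give no batch for these cultures, and the fit holds no batch term, so any part of a batch was not tested. The added 1 shrinks the fold changes of low genes. The fit was tested on simulated data. Exon lengths came from a later Gencode release. Many members overlap an antisense transcript. Some genes are counted in the totals but not reported here.

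The members and gene lists were chosen with earlier results of these data known. Values in every culture were given for the 12 called genes with the largest rise and the 12 with the largest fall and for the gene with the highest mean in each class; other such values were chosen after they were seen. Alternatives were another pseudocount, other filters, quantile normalization, no variance trend, a replicate block and leaving out each culture.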

Additional observations from a re-analysis of the deposited data

How the results depend on the processing

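The counts of channel genes held within 1.5 times of the 22 upregulated and 25 downregulated in the report under every alternative run, ranging from 17 to 26 and from 20 to 25, and for all tested genes from 3308 to 4214 and from 3484 to 4079. Leaving out single cultures gave 17 to 22 upregulated and 20 to 25 downregulated channel genes. Of the 47 members that passed, 35 kept their call under every alternative run for them and none changed sign. Scaling to the upper quartile and other pseudocounts were among these settings. Besides single cultures and the block, calls were lost without a filter on low values for Cacna1a (limma adjusted p = 0.051), Cacna2d2 (0.062), Kcnj14 (0.056), Kcnmb1 (0.053) and Scn2b (0.061), without a variance trend for Cacna1a (0.11), Cacna1d (0.057) and Cacna2d2 (0.052), and with quantile normalization for Cacna1a (0.081). With a mean of at least 50 required, 57 members were left to test.

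The replicate numbers were not taken as pairs, since same-numbered cultures deviated together with r of 0.059, 0.066 and 0.065 only. With a replicate block 23 channel genes rose and 25 fell, and 3967 and 4079 of all genes; Scn2b (adjusted p = 0.051) and Cacna1a (0.075) no longer passed, while Kcna2, Kcnk2 and Kcnn1 did (limma).

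The sign of 8 members that did not pass changed when single cultures were left out. Their log2FC then ranged from −0.19 to 0.58 for Cacna1e, −0.84 to 0.21 for Cacna1g, −0.015 to 0.12 for Cacng5, −0.13 to 0.054 for Kcnab2, −0.040 to 0.17 for Kcnh2, −0.061 to 0.12 for Kcnh5, −0.92 to 0.069 for Kcnj13 and −0.46 to 0.17 for Kcns3. Quantile normalization gave Kcnab2 a log2FC of 0.0125. The cause was not tested. Members with means near 10 rest on few reads, and the wide intervals of Cacna1g and Kcnj13 do not show that their levels were equal.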
